A study of Mus musculus with 6 samples.

Results

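The heat shock proteins and chaperones of the mouse testis were followed in RNA-seq libraries of mice with and without the citrullinating enzymes PAD2 and PAD4. The members were taken by name: protein-coding genes of GRCm38 whose symbol begins with Hspa, Hspb, Hsp90, Hspd, Hspe, Hsph, Dnaja, Dnajb or Dnajc, or with Cct followed by a digit, and that had at least 10 counts in at least 2 libraries. Of 55536 genes in the table, 82 carry such a symbol and 76 were kept. Hspbap1 was left out by name, Hspb7, Dnajc8 and Dnajc16 because they start between 115 and 150 Mb of chromosome 4, the part around the Padi genes, and Hspb2 and Hspb3 because of too few counts. All 76 members were among the 20744 genes that entered the test.

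Chaperones hold unfolded proteins, fold them and hand them on. HSP70 proteins bind and release a client in a cycle of ATP hydrolysis, which J proteins (Dnaja, Dnajb and Dnajc) start and nucleotide exchange factors such as the HSP110 family end. HSP90 proteins take over clients such as kinases and steroid receptors, the chaperonin TRiC (Cct genes) folds actin and tubulin inside a ring, and small HSPs keep unfolded proteins from clumping. The testis is known for germ cell forms of several of these proteins, made in spermatocytes and spermatids beside or in place of the widely expressed relative.

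Whole testes of 4-month-old males were used, with 2 animals and so 2 libraries for each of 3 genotypes. WT mice were FVB/NJ. P2KO mice, on the same background, carry a gene trap in Padi2 in which LacZ and neomycin sequence replaces the coding part of exon 1, and DKO mice carry this Padi2 allele together with a small frameshift deletion in exon 1 of Padi4, made with CRISPR/Cas9 in Padi2-null zygotes and kept as a line from 1 founder. Neither allele is limited to a cell type. Each library held between 21939393 and 27306679 counts on genes. Padi2 had 47 and 64 counts in WT, 100 and 55 in P2KO and 59 and 83 in DKO, so the counts were not lower in the knockout libraries. They cover the whole gene, and the replaced part of exon 1 was not counted on its own, so that they do not check the allele. Padi4 had 20 and 43 counts in WT, 11 and 10 in P2KO and 4 and 4 in DKO. Germ cell markers were abundant in every library: 6 genes of elongating spermatids (protamines, transition proteins, Odf1 and Gapdhs) summed to between 319800 and 386600 normalized counts. The 5 epididymis markers summed to between 3.18 and 13.89 normalized counts. Normalized counts are counts scaled to a common library size with TMM factors.

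Testis-enriched chaperones were among the highest in WT testis. Levels were compared between genes as normalized counts per kb of merged exon, averaged over the 2 WT libraries. The 12 members known as testis-enriched had a median level of 3740 per kb and ran from 1280 to 18000, and 7 of them stood among the 10 highest of the 76. The 41 ubiquitous members had a median of 575 per kb and ran from 38.4 to 3250, with 1 of them, Hspa5, among the highest 10. The 6 stress-induced members spread from 9.43 to 11900 per kb around a median of 327, and the other 17 had a median of 120 per kb. The median of all tested genes was 68.1 per kb. Testis-enriched members made up 56.4% and 56.3% of the summed level per kb of all members in the WT libraries, 55.5% and 55.2% in P2KO, and 54.9% and 55% in DKO. They also have short merged exons, with a median of 1753 nt against 4229 nt for ubiquitous members. The same members thus held a smaller part of the raw counts: all members took from 1.62% to 1.68% of a library and testis-enriched members from 0.585% to 0.617%. Merged exons join those of every annotated transcript of a gene, and which of them the testis uses was not measured. A gene with long unused exons is understated per kb. This limit holds for the order of levels and for the ratios between genes below.

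The highest member was Hspb9, a small HSP of the testis, at 18000 ± 295 per kb (SD, n = 2 libraries). It was followed by the spermatid J protein Dnajb3 at 16300 ± 24.1, by Hspa2, an HSP70 of spermatocytes and spermatids that male mice need for meiosis, at 13500 ± 730, by the HSP90 gene Hsp90aa1 at 11900 ± 323 and by the spermatid HSP70 Hspa1l at 9590 ± 87.4. Each of these stood above the next in both WT libraries. Dnajb8 (5310 ± 12.3), Dnajc5b (3920 ± 402), Cct6b (3570 ± 62.4) and Hspa5 (3250 ± 14.8) came next, again without overlap between neighbours. The order was not resolved among Dnajb1, Cct2, Hsp90b1 and Cct5, between 2960 and 2890 per kb, nor between Dnajc5g and Hsp90ab1, whose WT libraries overlapped. Hsp90aa1 has 3 near-identical pseudogenes and may be understated, and the antisense gene 1700031F10Rik covers 37.2% of the exons of Dnajb8, so that the split of reads between these 2 genes is uncertain.

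**Figure D1:**
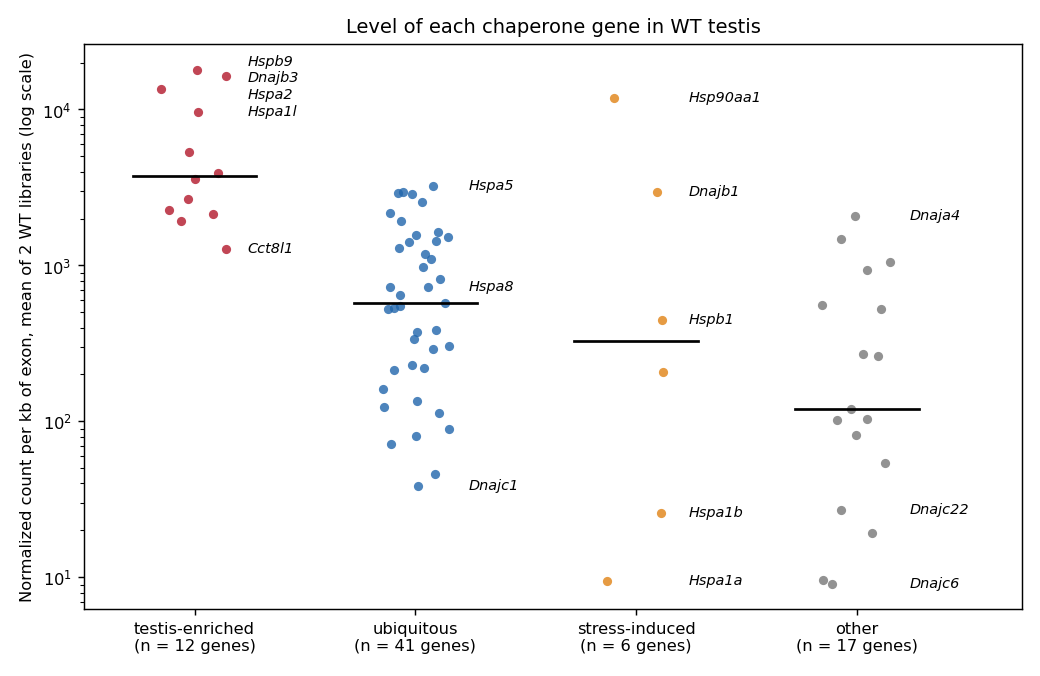
Level of each of the 76 chaperone genes in WT testis, as normalized counts per kb of exon (mean of 2 libraries, log scale), by class. Dots are genes and bars class medians: 3740 for testis-enriched, 575 for ubiquitous, 327 for stress-induced and 120 for other members.

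The cytosolic HSP70s, which do the work of binding clients, had their highest levels in the germ cell forms. Hspa2 counts were 32804 and 36972 in WT, 40375 and 32775 in P2KO, and 38399 and 32796 in DKO. Per unit of length the gene stood 18.6 ± 0.208 times (mean ± SD of the 2 WT libraries) above Hspa8, the constitutive HSP70 of most cells, and between 16.7 and 18.7 times above it in all 6 libraries. Its log2 fold change was -0.01 in P2KO against WT (95% interval -0.12 to 0.10) and 0.01 in DKO against WT (-0.10 to 0.12). Hspa8 itself has 6 processed pseudogenes that are at least 95% identical to it, so reads that fit a copy as well were not counted and its level may be understated.

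Hspa1l and Hspa1a lie head to head on chromosome 17, with 546 nt between their starts, and Hspa1b follows 9951 nt beyond Hspa1a. The neighbours differed widely in level. Hspa1l (chr17:34972703-34979285, plus strand) had 20908 and 25774 counts in WT, 23762 and 20068 in P2KO, and 24522 and 21348 in DKO. Hspa1a (chr17:34969190-34972156, minus strand), the heat-inducible HSP70, had 25 and 30, 42 and 15, and 24 and 21 counts. The ratio of Hspa1l to Hspa1a per unit of length ran from 679 to 1610 over the 6 libraries, both extremes being P2KO libraries, over 15 to 42 counts of Hspa1a. Hspa1b, the second inducible gene, had 72 and 69 counts in WT, 93 and 75 in P2KO and 60 and 73 in DKO. Hspa1a and Hspa1b are 99.228% identical over 2201 nt, and reads that match both were not counted for either, which lowers both levels by an amount not known here. An antisense gene, Gm10501, covers 71.9% of the exons of Hspa1l on the other strand and had from 24 to 50 counts in a library. Which of STAR's strand columns was deposited is not given in the sources used here, so that the split between these overlapping genes is uncertain. After normalization Hspa1l stood at 23550 and 23860 in WT, 21080 and 21360 in P2KO, and 23490 and 22630 in DKO. The P2KO libraries were below both others, by -0.16 ± 0.052 on the log2 scale (± SE) against WT, which was not called (unadjusted p = 0.00413, adjusted p = 0.276 by edgeR). Of all tested genes 18.8% had both P2KO libraries below both WT libraries. The stress-induced Hspa1a and Hspa1b were measured too thinly to be placed: in DKO against WT the intervals ran from -1.05 to 0.45 for Hspa1a and from -0.54 to 0.34 for Hspa1b.

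Among the exchange factors, Hspa4l, the germ cell member of the HSP110 family, had 25170 and 25300 normalized counts in WT, 24330 and 25200 in P2KO, and 27160 and 27270 in DKO. Both DKO libraries were above all others, by 0.11 ± 0.0515 on the log2 scale against WT, and the difference was not called (adjusted p = 0.325 by edgeR). Of all tested genes 21.6% had both DKO libraries above both WT libraries, and 21.6% below. Hspa4, the relative of Hspa4l, moved by 0.00 ± 0.0552 in DKO against WT. Per unit of length Hspa4l was 1.36 ± 0.0102 times Hspa4 in WT and 1.46 ± 0.000609 times in DKO. The stress-induced exchange factor Hsph1 had 1355 and 1584 counts in WT and differed by -0.04 ± 0.0724 in DKO. For HSP90, the inducible form Hsp90aa1, which is needed for meiosis in male mice, had 40600 and 51347 counts in WT, 52643 and 44222 in P2KO, and 50956 and 47200 in DKO, the largest counts of any member. Its log2 fold change in DKO against WT was 0.08 ± 0.0499. Hsp90ab1, the constitutive form, differed by -0.01 ± 0.0607.

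The J proteins held the widest range of germ cell forms. Dnajb3 stood 10.7 ± 0.116 times above Dnajb6 per unit of length in WT, and Dnajb8 3.5 ± 0.0513 times above the same gene. Dnajb6 has 6 processed pseudogenes at 95% identity or more, so its own level may be understated and these ratios overstated. Dnajb6 and Dnajb8 are known to hold back the aggregation of polyglutamine proteins. Dnajc5b and Dnajc5g, germ cell relatives of the synaptic vesicle protein Dnajc5, were 31.6 ± 4.66 and 21.4 ± 1.76 times as high as Dnajc5. Dnajb13, a protein of the radial spokes of the sperm tail, was instead lower than its partner Dnajb1 (ratio 0.768 ± 0.00668), a stress-induced gene that had 8409 and 10261 counts in WT. Dnajb7, with 2255 and 2963 counts in WT, has no partner among the pairs. In DKO against WT the log2 fold changes of Dnajb7, Dnajb8, Dnajb13, Dnajc5b and Dnajc5g were -0.06, -0.03, 0.07, 0.06 and 0.10, with standard errors from 0.0566 to 0.0637, and none was called.

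The 8 TRiC members lay close together, between 1280 and 3570 per kb. Cct6b, the germ cell form of the zeta subunit, was the highest, with 5848 and 7295 counts in WT, 7109 and 6015 in P2KO and 6428 and 5971 in DKO. It stood 4.89 ± 0.302 times above Cct6a per unit of length, and this ratio was 4.64 ± 0.128 in P2KO and 4.73 ± 0.261 in DKO. Cct6a, with 2422 and 2768 counts in WT, is no member because the annotation gives it the type processed transcript. Cct8l1, a testis-enriched relative of the theta subunit, was close to Cct8 (ratio 0.904 ± 0.00704). Of the 11 pairs of a testis-enriched member with a relative outside that class, 3 of them with the stress-induced Hspa1a, Hspb1 or Dnajb1, 9 had the testis-enriched gene higher per unit of length in all 6 libraries, the exceptions being Cct8l1 and Dnajb13.

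In the endoplasmic reticulum, where chaperones fold secreted and membrane proteins, Hspa5 (BiP, the HSP70 of that compartment) was the highest member, with 12223 and 14779 counts in WT. The promoter windows of 62 of the 76 members were found among the RefSeq promoters of GRCm38.p6, which run from 250 bases before to 50 bases after a start. The endoplasmic reticulum stress element, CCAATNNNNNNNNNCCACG on either strand, was found in those of 3 members, Hspa5, Hsp90b1 (GRP94, the HSP90 of the compartment) and Dnajc3, an inhibitor of the kinase PERK. All 3 are among the 10 matched members of this compartment, and none of the other 52 matched members held it, against 0.137% of 27025 genes with a window. Hsp90b1 holds the element at -212 and at -107 from its start, and the stretch at -107 is shown. The stretches are shown because these 3 genes share the element, 5′ to 3′ on the strand of the gene, with the element in capitals (in Hsp90b1 its reverse complement), at chr2:34772019-34772048 (plus strand), chr10:86705528-86705557 (minus strand) and chr14:118937821-118937850 (plus strand):
Hspa5: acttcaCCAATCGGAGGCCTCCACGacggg
Hsp90b1: agagtgCGTGGTGAGGCACGATTGGtgagt
Dnajc3: ccacaaCCAATCAGCGCCAACCACGacccg
The log2 fold changes of the 3 genes in DKO against WT were 0.04 ± 0.0537 for Hspa5, 0.12 ± 0.0547 for Hsp90b1 and 0.11 ± 0.0649 for Dnajc3, none of them called. Hsp90b1 had 11930 and 11740 normalized counts in WT, 11370 and 11960 in P2KO, and 12630 and 13010 in DKO, both DKO libraries being above the rest. Hspa5 had 13770 and 13680 in WT, 12640 and 13140 in P2KO, and 14220 and 13980 in DKO, with both P2KO libraries lowest. Such splits from WT are common: 21.6% of all tested genes had both DKO libraries above WT, and 18.8% both P2KO libraries below it. Of the 12 members of the compartment 9 were above 0 in DKO against WT, with a median of 0.041, where 48.8% of all tested genes and 52% of protein-coding ones were above 0 and the median over all tested genes was -0.005. In P2KO against WT 6 of the 12 were above 0. These members have long exons (median 5072.5 nt), and across genes the log2 fold change in DKO against WT was correlated with length (Spearman's rho 0.293 over 19517 genes off chromosome 4, a description). The part of length in these values was not tested.

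Mitochondrial members ranged from 45.7 to 1630 per kb, with the mitochondrial HSP70 Hspa9 highest. Hspd1 and Hspe1, the chaperonin and its cochaperonin, are divergent genes of chromosome 1 that share 112 nt at their starts in the annotation. The heat shock element, GAANNTTCNNGAA on either strand, was found in the windows of 4 of the 62 matched members, Hspd1, Hspe1, Dnajb6 and Hsph1, and of 0.662% of all genes with a window. Hspd1 and Hspe1 share 1 pair of overlapping elements, shown here from chr1:55088053-55088082 on the strand of each gene with both elements as 1 run of capitals, beside that of Dnajb6 (chr5:29735843-29735872, plus strand):
Hspd1: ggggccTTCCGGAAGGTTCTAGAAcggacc
Hspe1: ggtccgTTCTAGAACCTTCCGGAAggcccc
Dnajb6: cagctccgaGAATCTTCCGGAAcgctagac
The element of Hsph1 lies after the start. The heat shock letters were not found in the windows of the 11 matched testis-enriched members or the 14 matched members of the class other. They were in those of 3 of 32 ubiquitous and 1 of 5 stress-induced members. Most members of every class thus lacked them, and their absence does not set the testis-enriched class apart. The cyclic AMP response element TGACGTCA was not found in the testis-enriched windows either. It was in the window of 1 member, Dnajc27, and of 2.03% of all genes. Hspd1 had 884 and 1114 counts in WT, 1135 and 1032 in P2KO and 1086 and 895 in DKO, and differed by -0.03 ± 0.0785 on the log2 scale in DKO against WT. Hspe1 had 272 and 352, 335 and 271, and 293 and 245 counts, and differed by -0.23 ± 0.116. Neither was called, and both have near-identical copies elsewhere in the genome.

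No member was called in P2KO against WT. Genes were tested by edgeR's quasi-likelihood test on the counts of all 6 libraries with Benjamini-Hochberg adjustment over the 20744 tested genes, and a gene with an adjusted p under 0.05 counts as called. In this comparison 0.337% of all tested genes were called. At an unadjusted p under 0.05 there were 4 members, all lower in P2KO (Hspa1l, Hspb9, Hspa12a and Dnajc22), where 8.57% of all tested genes reached that level. DESeq2 called none either. Hspb9 had 13240 and 12940 normalized counts in WT, 11960 and 11810 in P2KO, and 12230 and 12010 in DKO, so that the WT libraries were above all others. The difference was -0.14 ± 0.0538 on the log2 scale in P2KO and -0.11 ± 0.0538 in DKO, neither called (adjusted p = 0.421 and 0.343 by edgeR). Of all tested genes 18.8% had both P2KO libraries below both WT libraries, and 21.6% both DKO libraries. Per unit of length Hspb9 stood 40.4 ± 2.79 times above Hspb1 in WT, 38.2 ± 0.126 times in P2KO and 50.5 ± 6 times in DKO. The 95% interval of the log2 fold change stayed within 0.32 either side of 0 for 63 of the 76 members and for 12 of the 12 testis-enriched ones. The median log2 fold change was -0.031 over testis-enriched members and -0.012 over ubiquitous ones, beside 0.004 over all tested genes.

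DKO against WT brought 4 calls among the 76 members, where 3.22% of all tested genes were called. Dnajc13 was higher and Dnajb3, Dnajc22 and Hspb1 were lower in DKO, beside 2.06% and 1.16% of all tested genes called in these directions. At an unadjusted p under 0.05 there were 10 members (4 higher, 6 lower), where 14.1% of all tested genes reached it. Most members moved little: the log2 fold change lay within 0.2 either way for 67 of the 76, and the interval within 0.32 for 61. Of the 12 testis-enriched members 11 had an interval within 0.32, all but Dnajb3. Medians were -0.037 over testis-enriched and 0.004 over ubiquitous members, beside -0.005 over all tested genes, and with a correction for length they were 0.004 and -0.003.

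**Figure D2:**
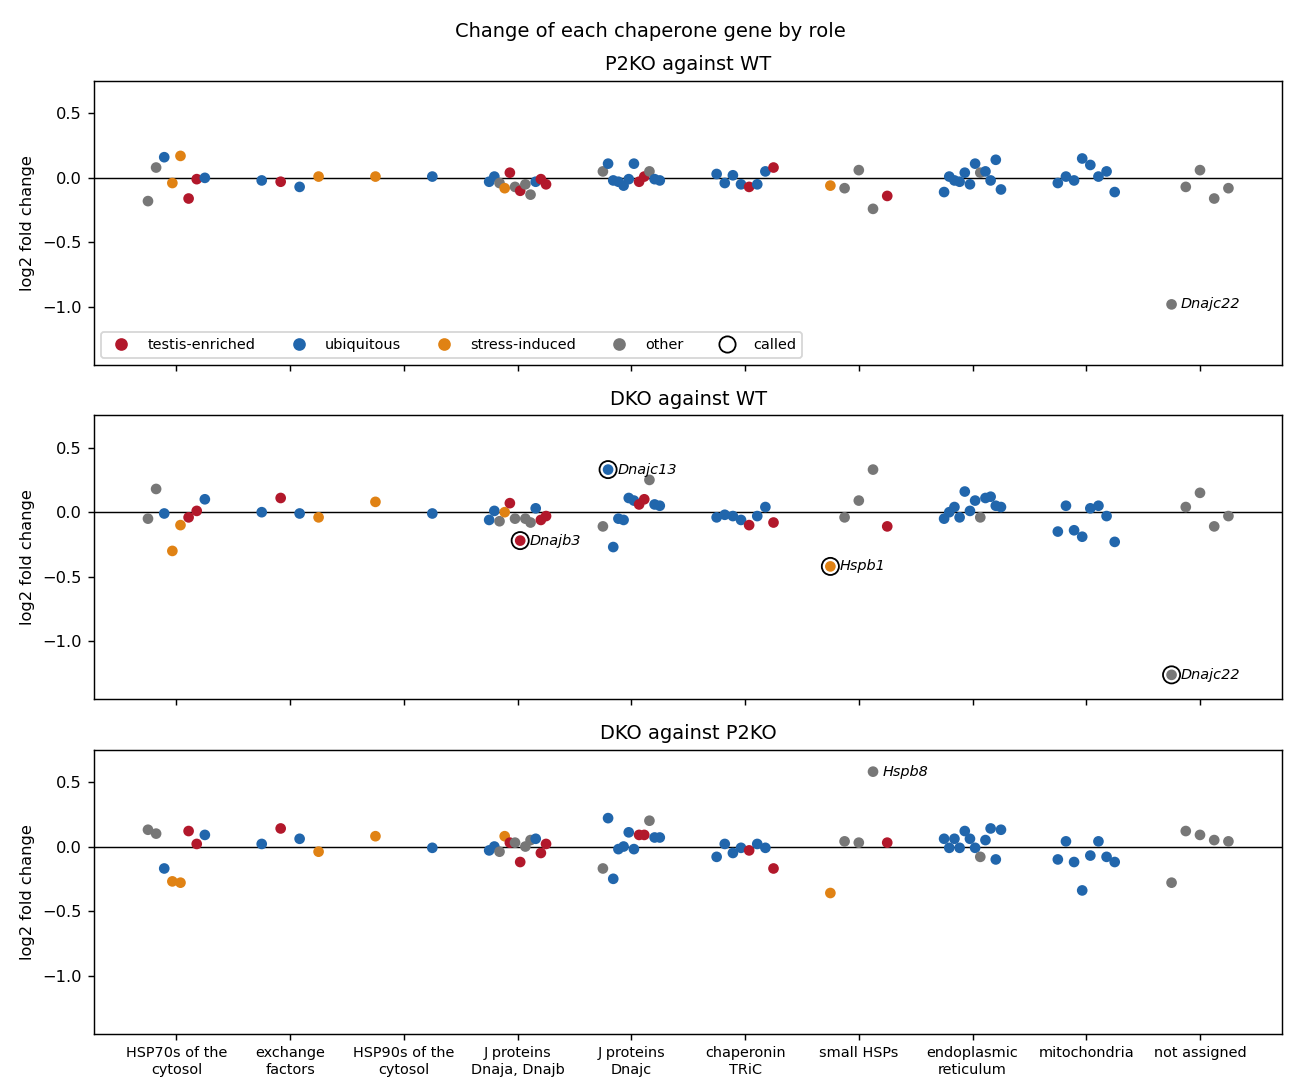
Log2 fold change of each of the 76 chaperone genes by role, in the 3 comparisons. Colours give the class and rings the called genes, which are 0 in P2KO against WT, 4 in DKO against WT and 0 in DKO against P2KO.

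Dnajb3 (chr1:88204732-88205782, minus strand), a J protein of spermatids, had 15153 and 18479 counts in WT, 17997 and 15023 in P2KO, and 15394 and 13801 in DKO. After normalization these were 17070 and 17110 in WT, 15960 and 15990 in P2KO, and 14750 and 14630 in DKO. The 3 genotypes did not overlap, with WT highest and DKO lowest. Its log2 fold change was -0.22 ± 0.0527 in DKO against WT (0.86-fold, adjusted p = 0.0113 by edgeR), -0.10 ± 0.0526 in P2KO against WT (adjusted p = 0.63) and -0.12 ± 0.0527 in DKO against P2KO (adjusted p = 0.329). Hspb1 (chr5:135887919-135889563, plus strand), a stress-induced small HSP that binds unfolded proteins and guards actin filaments, had 435 and 469 counts in WT, 502 and 411 in P2KO, and 392 and 294 in DKO. Normalized, it stood at 490 and 434.2 in WT, 445.3 and 437.5 in P2KO, and 375.5 and 311.7 in DKO, with both DKO libraries below the other 4. The log2 fold change was -0.42 ± 0.109 against WT (0.747-fold, adjusted p = 0.0202) and -0.36 ± 0.109 against P2KO (adjusted p = 0.109). Hspb1 has a processed pseudogene that is 99.365% identical over 630 nt.

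Dnajc13 (chr9:104151282-104262930, minus strand), a J protein of endosomes that takes part in membrane sorting, had 1028 and 1041 counts in WT, 1240 and 1115 in P2KO, and 1344 and 1297 in DKO. The normalized counts were 1158 and 963.7 in WT, 1100 and 1187 in P2KO, and 1287 and 1375 in DKO. Both DKO libraries were above the other 4, and WT and P2KO overlapped. It rose by 0.33 ± 0.0807 on the log2 scale in DKO against WT (1.26-fold, adjusted p = 0.0125 by edgeR). Dnajc22 (chr15:99093170-99104737, plus strand) was the least abundant of the 4, with 43 and 55 counts in WT, 31 and 21 in P2KO, and 20 and 21 in DKO. Both knockout genotypes lay below both WT libraries. Its log2 fold change was -1.26 ± 0.305 in DKO against WT (0.417-fold, adjusted p = 0.0113) and -0.98 ± 0.292 in P2KO against WT (adjusted p = 0.21), and the interval of the difference between DKO and P2KO ran from -0.97 to 0.41.

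**Figure D3:**
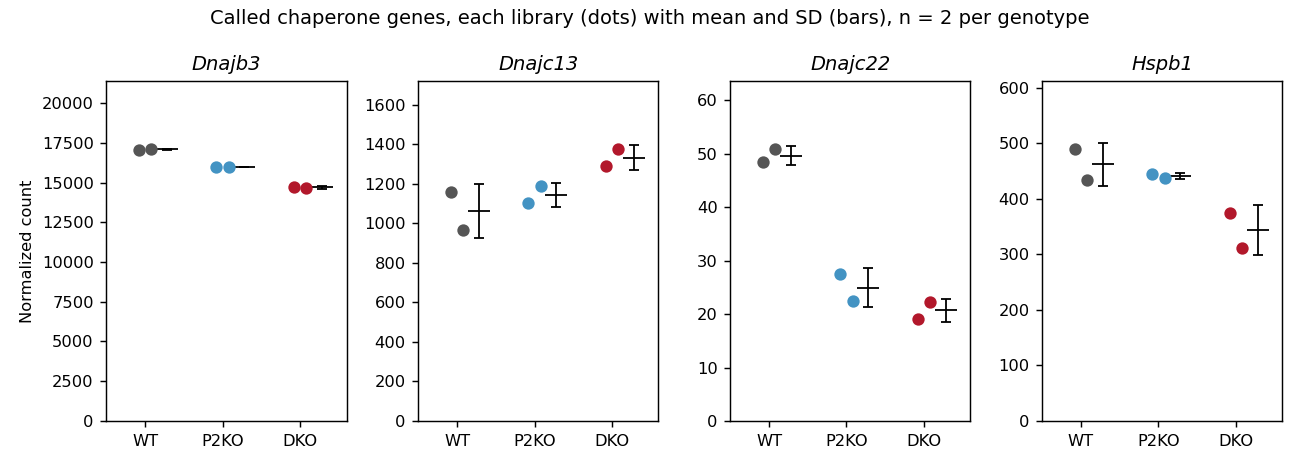
Normalized counts of the 4 members called in DKO against WT, in each of the 6 libraries (dots), with the mean and SD of the 2 libraries of a genotype (bars). Dnajb3, Dnajc22 and Hspb1 are lower in both DKO libraries than in both WT libraries and Dnajc13 is higher.

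The stretches before the starts of the called genes are shown so that they can be set against the promoters printed above. None of the 3 motifs lies in full in the windows of Dnajb3, Hspb1 or Dnajc13, and no window was matched for Dnajc22. Partial motifs were not searched. The stretch of Hspb1 holds gaaccttc, which fits the first part of the heat shock letters, GAANNTTC. Sequences are 5′ to 3′ on the strand of the gene, from chr1:88205783-88205848, chr5:135887819-135887918 and chr9:104262931-104263030. That of Dnajb3 ends before the start in the GENCODE annotation, which lies upstream of the RefSeq start, and all are in lower case because no full motif was found:
Dnajb3: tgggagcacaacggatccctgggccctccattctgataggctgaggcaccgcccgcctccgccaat
Hspb1: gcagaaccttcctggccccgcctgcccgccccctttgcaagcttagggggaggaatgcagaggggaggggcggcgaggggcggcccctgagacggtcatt
Dnajc13: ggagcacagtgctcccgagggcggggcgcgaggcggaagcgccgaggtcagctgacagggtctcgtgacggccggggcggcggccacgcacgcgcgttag

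Gene length moved with these calls. The 3 lower members have short merged exons (Dnajb3 1051 nt, Hspb1 1031 nt and Dnajc22 1850 nt, against a median of 3330 nt over all tested genes), and Dnajc13 has 11938 nt. Across the 19517 tested genes off chromosome 4, Spearman's correlation of the log2 fold change in DKO against WT with length was 0.293, and across the 76 members 0.292; both are over genes of the same libraries and so are descriptions. With a correction for length in each library, 1 member was called, Dnajc22, while Dnajb3 came to -0.14 (adjusted p = 0.139 by edgeR), Hspb1 to -0.34 (adjusted p = 0.0907) and Dnajc13 to 0.22 (adjusted p = 0.128). DESeq2 on all 6 libraries called 2 of the 4, Dnajb3 and Dnajc13, gave Hspb1 an adjusted p of 0.105 and gave Dnajc22 none. Leaving out a WT or DKO library leaves that genotype with 1 library, which is then assumed to vary like the others, and fewer calls can follow from fewer libraries alone. Without DKO replicate 2 no member was called by edgeR (7 had an unadjusted p under 0.05), without DKO replicate 1 only Hspb1 was, without WT replicate 2 Dnajb3 and Hspb1 were, and without WT replicate 1 Dnajb3, Dnajc13, Dnajc22 and Dnajc27 were. The log2 fold changes of Dnajb3 (-0.23 to -0.21) and Dnajc22 (-1.37 to -1.16) moved little over these 4 sets. That of Dnajc13 was 0.20 without WT replicate 2 (adjusted p = 0.381 by edgeR) and 0.46 without WT replicate 1, and that of Hspb1 ran from -0.57 without DKO replicate 1 to -0.30 without DKO replicate 2.

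**Figure D4:**
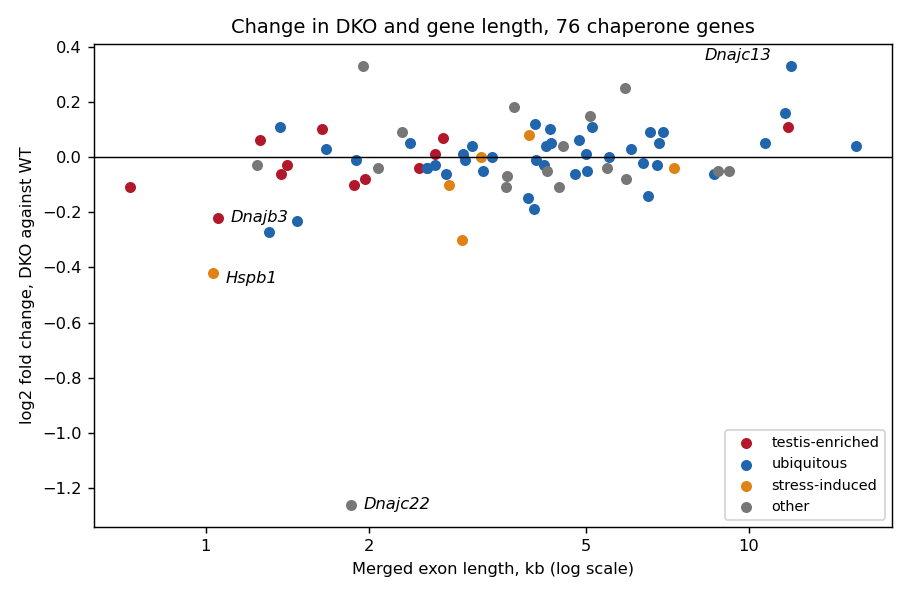
Log2 fold change in DKO against WT of the 76 chaperone genes against merged exon length in kb (log scale), with the 4 called genes named. The 3 called genes that are lower lie between 1031 and 1850 nt and the called gene that is higher has 11938 nt.

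Some cell type markers moved between the genotypes as well. The summed normalized counts of the 6 elongating spermatid markers were 374500 and 386600 in WT, 319800 and 352800 in P2KO, and 347500 and 343300 in DKO. All 6 were below 0 in both knockouts against WT, with Tnp2 called in P2KO and Prm1 and Tnp1 called in DKO, and none of the 6 was at 0 counts. These markers are short (median merged exon length 732.5 nt), and the part of length in their shift was not tested. The 6 round spermatid markers were instead all above 0 in P2KO against WT (median 0.076), and 2 of the 6 in DKO, none called. Spaca1 of that list was called lower in DKO against P2KO (-0.25, adjusted p = 0.0402 by edgeR). Macrophage markers were below 0 for 6 of 6 in P2KO and 4 of 6 in DKO against WT, none called. The 6 Leydig cell markers summed to 16270 and 15880 in WT, 18680 and 16730 in P2KO, and 20910 and 17110 in DKO, with 3 called higher and 1 called lower in DKO. The 5 red blood cell markers summed to 796.5 and 1054 normalized counts in WT, 531.3 and 907 in P2KO, and 782.6 and 771.8 in DKO, with none of the 3 tested called. The haemoglobin genes Hbb-bs (-0.94 in P2KO and -0.84 in DKO against WT, adjusted p = 0.103 and 0.0504 by edgeR) and Hba-a1 (-0.64 and -0.61) were below 0, and Alas2 was at -0.04 and 0.14. The part of these shifts in the levels of Dnajb3, Hspb9 or Hspb1 was not tested. In RNA of whole testis, fewer cells of a type and less RNA per cell cannot be told apart.

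**Figure D5:**
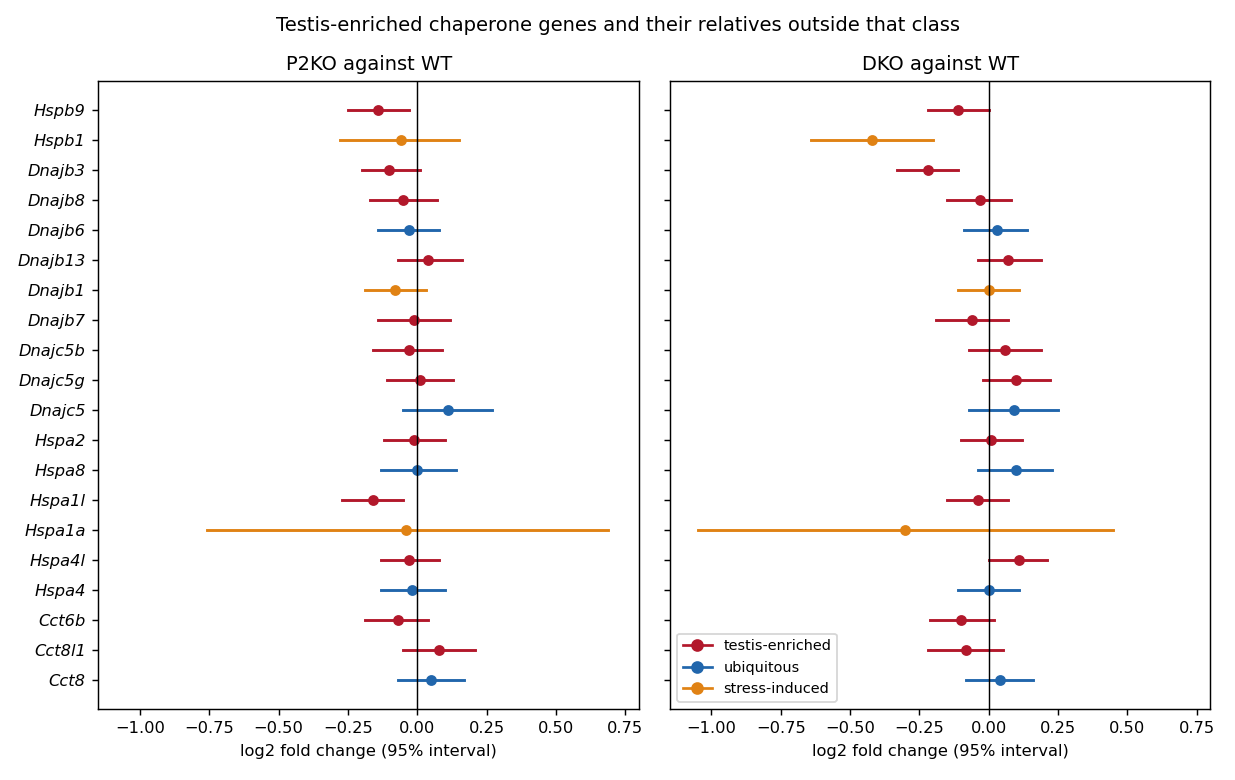
Log2 fold changes with 95% intervals of the 12 testis-enriched members and those of their relatives outside that class that are members, in P2KO and DKO against WT. Among testis-enriched genes the intervals of Hspa1l (-0.27 to -0.05) and Hspb9 (-0.25 to -0.03) in P2KO and of Dnajb3 (-0.33 to -0.11) in DKO lie below 0, in DKO that of Hspb9 also ends just below 0 and that of Hspa4l starts just above it, and that of the low-count relative Hspa1a is the widest.

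DKO against P2KO compares mice that differ at Padi4 and are kept as separate lines, so that allele and line cannot be told apart. It had 0 called members by edgeR, where 1.21% of all tested genes were called. There were 10 members at an unadjusted p under 0.05, 5 in each direction, where 11.8% of all tested genes reached it, and DESeq2 called none. A fit of these 4 libraries alone called Hspb1 (adjusted p = 0.0451 by edgeR), and without WT replicate 1 or without WT replicate 2 Hspb1 was called as well. This comparison shares the P2KO and DKO libraries with the others, and is no independent repeat of them. Among the 12 testis-enriched members, Hspa4l (0.14 ± 0.0515) and Hspa1l (0.12 ± 0.052) were above 0 and Cct8l1 (-0.17 ± 0.0643) and Dnajb3 (-0.12 ± 0.0527) below it at an unadjusted p under 0.05. For 12 of 12 the interval stayed within 0.32 either side of 0.

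The genes that work with the members were listed separately, 56 in all, of which 55 were tested. No partner was called in P2KO against WT, at an unadjusted p under 0.05 there were 2 of the 55 (8.57% of all tested genes), and DESeq2 called none. In DKO against WT 2 of the 55 were called, both lower and both among the 14 partners of TRiC and tubulin folding, where 3.22% of all tested genes were called and 1.16% called lower. At an unadjusted p under 0.05 there were 10 of the 55 (2 higher, 8 lower), where 14.1% of all tested genes reached it. Tbcc, a cofactor that completes the folding of the tubulin dimer, had 1935 and 1780 counts in WT, 1892 and 1641 in P2KO, and 1340 and 1178 in DKO. Both DKO libraries were below all others, with a log2 fold change of -0.59 ± 0.0846 against WT (adjusted p = 1.28e-05 by edgeR) and -0.43 ± 0.0848 against P2KO (adjusted p = 0.00277). Pfdn2, a subunit of prefoldin, which delivers unfolded actin and tubulin to the ring, had 455 and 468, 507 and 433, and 381 and 343 counts, and differed by -0.37 ± 0.105 in DKO against WT (adjusted p = 0.0399). Tbcc was called in DKO against WT under all 17 alternatives, but its value there was -0.38 without WT replicate 1 and -0.78 without WT replicate 2. In DKO against P2KO it was not called without P2KO replicate 2, DKO replicate 1 or DKO replicate 2, and in P2KO against WT it was called only without WT replicate 2 (-0.35, adjusted p = 0.00533). Pfdn2 was not called by DESeq2, with the replicate block, with the length correction, in a fit of the 2 genotypes, or without WT replicate 1, DKO replicate 1 or DKO replicate 2. The other 12 partners of TRiC, the 3 tested heat shock factors, the 13 HSP70 partners, the 16 HSP90 partners and the 9 lectin chaperones and disulfide isomerases of the endoplasmic reticulum had no call in the 3 comparisons as tested here, although with the length correction the HSP90 partner Cdc37 was called lower in DKO against WT (-0.22, adjusted p = 0.046) and without WT replicate 1 the HSP70 partner Bag6 was called higher (0.18, adjusted p = 0.0307). None of the 8 TRiC members was called either, and their log2 fold changes in DKO against WT ran from -0.10 to 0.04.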

How the data were processed

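The authors sequenced poly(A)-selected, directional libraries of whole testis, trimmed reads with Trim Galore and aligned them with STAR to GRCm38 with Ensembl annotations. The deposited table holds counts of uniquely mapped reads per gene, whole numbers with no normalization. The strand column and the tool versions are not given in the sources used here. All identifiers matched GENCODE release 21 (GRCm38), which gave positions, types and merged exon lengths. A copy of a gene is another gene's transcript with at least 95% identity over at least 150 nt by BLAST 2.17.0. The match also had to cover at least 50% of the shorter transcript.

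Counts were tested in R 4.3.3 with edgeR 4.0.16: TMM, filterByExpr with a minimum count of 10, glmQLFit and glmQLFTest on all 6 libraries (3 residual degrees of freedom), Benjamini-Hochberg over 20744 genes. The authors used DESeq2, tried here as an alternative (1.42.0). SE is the absolute log2 fold change divided by the square root of F, and intervals are 95%. An exact permutation test of 2 against 2 libraries cannot pass 0.05. The fit was tested on simulated data. Depth limits genes such as Hspa1a and Dnajc22. That the libraries of a genotype come from separate animals is stated by the study.

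Members and lists were chosen with earlier results of these data known. Genes named are those called, the testis-enriched members, their relatives, the stress-induced members and the highest of each role. Hspa12a, Dnajc27, Hsp90ab1, Hspb8, Dnajc6, Dnajc12, the TRiC neighbours in the order of levels and the genes with a promoter motif were named after their values were seen. Alternatives were RLE and upper-quartile scaling, other filters, DESeq2, fits of 2 genotypes, a replicate block, a length correction (lowess, span 0.3), genes off chromosome 4, and leaving out each library.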

Additional observations from a re-analysis of the deposited data

How the results depend on the processing

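With 2 libraries a genotype, every call rests on a spread shared across genes, and members with few counts (Hspa1a, Hspa1b, Hspb8, Dnajc6, Dnajc12, Dnajc22) had standard errors from 0.199 to 0.393 on the log2 scale in DKO against WT. No called member changed direction. The number of members called in P2KO against WT was 0 under all 17 alternatives. In DKO against WT, where 4 were called, the number was 2 with DESeq2 on all 6 libraries (Dnajb3 and Dnajc13; Dnajc22 was given no adjusted p), 1 with DESeq2 on the 2 genotypes compared, 1 with the length correction, 1 with the replicate block and length correction together, and from 0 to 4 when each library was left out. DKO against P2KO went from 0 to 1 member (Hspb1) with edgeR on the 2 genotypes compared, and ranged from 0 to 1 when each library was left out. The replicate block alone left 4 members called in DKO against WT, and libraries with the same number did not deviate together (correlations of -0.0572, 0.0574 and -0.0502). The labels do not say whether the numbers pair the animals, and these correlations cannot settle it. Leaving out a library also leaves fewer samples to call from; the cause of the other changes was not tested.

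Over all alternatives the log2 fold change in DKO against WT ran from -0.24 to -0.14 for Dnajb3, from 0.20 to 0.46 for Dnajc13 (without WT replicate 2 and without WT replicate 1), from -1.37 to -1.16 for Dnajc22 and from -0.57 to -0.30 for Hspb1. The medians lay so close to 0 that some changed sign: that over testis-enriched members in DKO against WT ran from -0.060 to 0.004 (above 0 with the length correction), and that over ubiquitous members from -0.023 to 0.029 in DKO against WT, from -0.026 to 0.010 in P2KO against WT and from -0.019 to 0.021 in DKO against P2KO. Partner genes called ranged from 1 to 2 in DKO against WT, from 0 to 1 in DKO against P2KO and from 0 to 1 in P2KO against WT. Requiring a mean count of 50 removed Dnajc22 from the test.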
